A study of Mus musculus with 18 samples.

Results

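The genes described here are 9 members of the regulator of G protein signaling (RGS) family, *Rgs1*, *Rgs2*, *Rgs3*, *Rgs10*, *Rgs13*, *Rgs14*, *Rgs16*, *Rgs18* and *Rgs19*, among the 16545 genes in the expression table of cultured mouse splenic B cells. They were taken by name as the family members of interest, with earlier results of these data known. Counts and medians over the 9 genes thus describe a list that was not chosen blind to the data. *Rgs16* was chosen by its higher level in *Zbtb24*-deficient cells than in control cells on D2. The D2 values of *Rgs16*, and every comparison that uses them, are therefore a description without a test. All 9 genes had a row in the table and were above 0 FPKM (fragments scaled to the length of the transcript and to the mapped fragments of the library) in at least 1 library of every comparison.

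Total B cells were purified from spleens of littermates on the C57BL/6 background, all with 1 Cre allele active in B cells and either *Zbtb24* +/+ (control) or *Zbtb24* loxp/loxp (B-CKO), and sequenced on D0 and after culture with LPS on D1 and D2. LPS, from the outer membrane of Gram-negative bacteria, stimulates B cells by way of TLR4. Each of the 6 groups held 3 libraries, which the methods describe as 1 mouse each, and it is not given whether libraries of the same number on different days came from the same mouse. Both genotypes carry the Cre, which acts during B cell development and removes exon 2 of *Zbtb24* where this exon is flanked by loxp sites. No library of cells cultured without LPS is among the samples, so that the effects of LPS, of time and of culture cannot be told apart. The age and sex of these mice and the LPS dose are not given in the sources used here.

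RGS proteins switch off signals from G protein-coupled receptors. They bind the activated alpha subunit of the G protein and speed up its hydrolysis of GTP, which ends signaling to the effectors. B cells use such receptors, among them the chemokine receptors CXCR4 and CXCR5 and the sphingosine 1-phosphate receptor S1PR1, to home to and leave lymphoid compartments, and RGS1 and RGS13 are known to dampen chemokine responses of B cells.

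*Rgs2*, *Rgs13*, *Rgs1* and *Rgs18* lie in this order within 776 kb of chromosome 1, between positions 143999338 and 144775427 of GRCm38 (the assembly also named mm10), all on the minus strand. *Rgs16* is on the plus strand of the same chromosome (153740353 to 153745468), 8.96 Mb away from this cluster. *Rgs3* is on chromosome 4 (62559835 to 62703019, plus strand), *Rgs10* on chromosome 7 (128373621 to 128419506, minus strand), *Rgs14* on chromosome 13 (55369732 to 55384687, plus strand) and *Rgs19* on chromosome 2 (181688419 to 181694537, minus strand). In the GENCODE annotation, exons of *Rgs16* share 236 bases with the antisense gene *Gm28513*, which has no row in the table. Whether the counting used strand is not stated, so that fragments of both genes cannot be told apart.

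RefSeq promoter sequences of GRCm38.p6 were matched for 6 of the 9 genes, with 9 windows in all, and *Rgs1*, *Rgs14* and *Rgs18* were not matched. The 250 bases before the start site are printed 5′ to 3′ on the strand of the gene, for 3 genes whose mRNA behaved differently in the results that follow. These are *Rgs2*, which was high on D0 and low in culture, *Rgs13*, its neighbor with the largest tested difference between genotypes, and *Rgs16*, which was highest on D2. Capitals mark a match to any of 4 motifs searched on both strands, CAGGACCT (a core sequence reported for ZBTB24), the NF-kappaB consensus, TGANTCA (AP-1) and TGACGTCA (the cAMP response element).

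Rgs2, chr1:144004150-144004399, minus strand: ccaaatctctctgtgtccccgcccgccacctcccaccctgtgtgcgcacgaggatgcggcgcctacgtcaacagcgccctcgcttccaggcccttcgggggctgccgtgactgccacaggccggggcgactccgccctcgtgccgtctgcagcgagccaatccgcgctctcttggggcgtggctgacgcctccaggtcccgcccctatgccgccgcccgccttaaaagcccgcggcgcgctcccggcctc
Rgs13, chr1:144177373-144177622, minus strand: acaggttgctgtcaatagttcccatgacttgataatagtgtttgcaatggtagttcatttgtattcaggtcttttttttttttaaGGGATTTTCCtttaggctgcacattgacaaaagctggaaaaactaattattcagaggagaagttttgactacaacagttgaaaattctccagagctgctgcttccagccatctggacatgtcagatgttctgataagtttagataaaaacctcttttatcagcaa
Rgs16, chr1:153740103-153740352, plus strand: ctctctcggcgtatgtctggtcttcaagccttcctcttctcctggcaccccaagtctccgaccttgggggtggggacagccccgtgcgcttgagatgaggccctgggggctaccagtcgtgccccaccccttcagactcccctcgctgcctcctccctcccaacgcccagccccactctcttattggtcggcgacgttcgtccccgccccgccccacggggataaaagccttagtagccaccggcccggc

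The *Rgs13* window held a match to the NF-kappaB consensus on the gene's strand, 165 to 156 bases before the start, and the other 8 windows held no match to any of the 4 motifs. Among all 32851 promoter windows of the same length, 5% held the NF-kappaB consensus, 6.75% TGANTCA, 1.63% CAGGACCT and 1.55% TGACGTCA. The windows differed in base composition. The *Rgs2* window had 30 CpG dinucleotides and 72.4% G or C, the *Rgs16* window had 17 and 66.4%, and the *Rgs13* window had 0 and 36%, against medians of 6 and 52.4% over all windows. A match is only a match of letters and does not show binding.

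The table holds no counts, so the number of fragments behind a value is unknown. The steps between the low values of 38 genes gave a relative depth of 0.870 to 0.934 for the libraries of D0 and of 0.994 to 1.07 for those of D1 and D2. Libraries of the same group had correlations of at least 0.986 across genes on the log2(FPKM + 1) scale, and the median SD between control replicates was 0.171 on D0 against 0.0556 on D1. In fits without a replicate block, differences on D0 were thus measured with a larger error. Libraries of the same number deviated together between genotypes on D0 (correlations of 0.468 to 0.854), so that part of this spread was shared by the genotypes. *Zbtb24*, the deleted gene, was at 45.4 ± 7.24 FPKM (control) and 12.5 ± 1.90 FPKM (B-CKO) on D0 (SD, n = 3), at 17.6 ± 1.66 and 10.9 ± 0.677 on D1, and at 15.2 ± 1.85 and 10.4 ± 1.07 on D2, with all B-CKO libraries below all control libraries on each day. The 14 B cell markers were all detected, with summed levels of 15871 to 18601 FPKM on D0 and 5294 to 7460 FPKM in culture.

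On D0, the mRNA of the RGS family was mostly that of *Rgs2*, *Rgs19*, *Rgs1* and *Rgs14*. In control cells, *Rgs2* was at 140 ± 45.2 FPKM, *Rgs19* at 72.0 ± 20.3, *Rgs1* at 56.9 ± 18.4 and *Rgs14* at 47.1 ± 9.72 (SD, n = 3), which made up 40.8%, 21.0%, 16.6% and 13.7% of the summed level of the 9 genes. All 3 *Rgs2* libraries lay above all libraries of the next gene, whereas the libraries of *Rgs19* and *Rgs1*, and those of *Rgs1* and *Rgs14*, overlapped. *Rgs10* (11.6 ± 1.58 FPKM) and *Rgs3* (8.18 ± 1.22) followed without overlap. *Rgs18* (4.06 ± 1.28) and *Rgs13* (2.65 ± 1.09) overlapped each other, and *Rgs16* was lowest at 0.333 ± 0.0651 FPKM. The order was the same in B-CKO cells, except that the libraries of *Rgs3* and *Rgs18* overlapped there. FPKM are levels per length of transcript, so that they can be set side by side between genes.

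The summed level of the 9 genes was lower in every library in culture than in any library of D0 (the plot of the sum per library and of each gene's share). It was 276 to 410 FPKM in the control libraries of D0, 96.5 to 98.5 on D1 and 86.8 to 91.3 on D2, and 299 to 376, 87.5 to 98.2 and 79.3 to 86.4 FPKM in the B-CKO libraries. *Rgs19* took over the largest share, with 71.2% of the sum in control and 72.2% in B-CKO cells on D1. On D2 it was still the highest of the 9, at 57.9% and 56.9%, and *Rgs14* (17.3% and 14.8%) and *Rgs10* (12.8% and 12.7%) followed. In bulk samples, fewer cells that express a gene and less RNA per cell cannot be told apart.

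**Figure D1:**
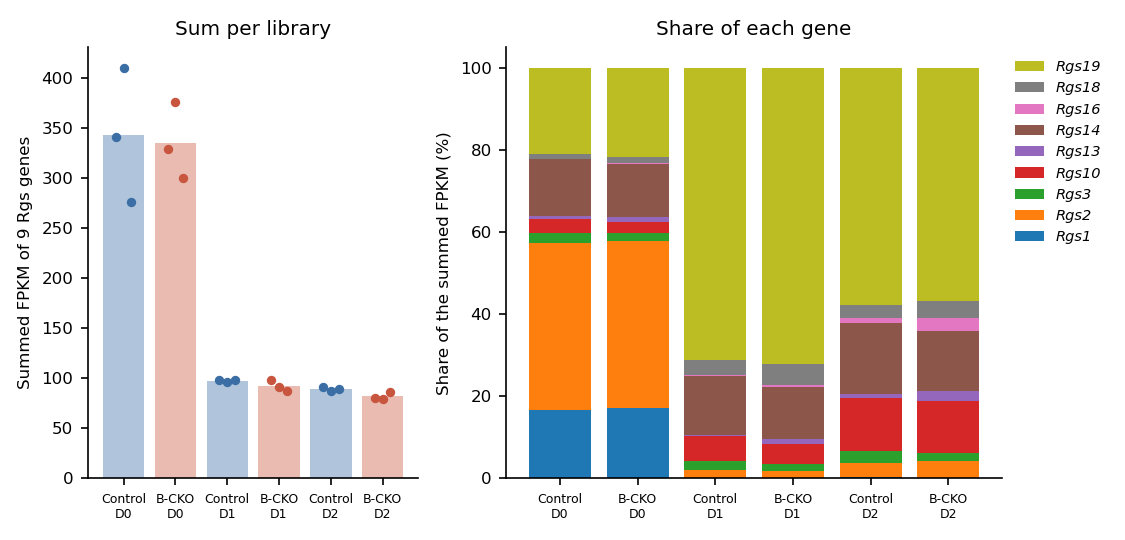
Left, summed FPKM of the 9 *Rgs* genes in each library (points) with the mean of each group (bars), for control and B-CKO cells on D0, D1 and D2. Right, share of each gene in the summed group means, in percent. *Rgs1* and *Rgs2* make up 16.6% and 40.8% of the control sum on D0 and 0.0547% and 1.86% on D1, where *Rgs19* has the largest share.

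The next question was how each gene changed in LPS culture. D1 was compared with D0 within each genotype, with limma on log2(FPKM + 1) over all genes above 0 in any of the 6 libraries, and a gene was called when its Benjamini-Hochberg adjusted p was under 0.05. Fold changes are on this scale and understate the change of low genes. In both genotypes, 6 of the 9 genes were called lower on D1 (*Rgs1*, *Rgs2*, *Rgs3*, *Rgs10*, *Rgs13* and *Rgs14*) and 0 were called higher. Of all genes, 30.7% were called lower and 26.7% higher in control cells, and 32.3% and 27.5% in B-CKO cells. The median change of the 9 genes was -1.37 in control and -1.36 in B-CKO cells, against -0.02 over all genes in each genotype.

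*Rgs1* and *Rgs2* fell most. *Rgs1*, which dampens chemokine receptor signals in B cells, was at 39.2, 75.9 and 55.6 FPKM in the control libraries of D0 and at 39.6, 76.9 and 56.1 in the B-CKO libraries. On D1 it was at 0, 0.08 and 0.08 FPKM in control and at 0.08, 0.04 and 0.20 in B-CKO cells. Every D0 library was far above every library in culture. By limma, *Rgs1* changed by -5.73 on the log2 scale (95% confidence interval -6.30 to -5.17, limma adjusted p = 9.54e-06) in control and -5.68 (-6.24 to -5.11, adjusted p = 6.22e-06) in B-CKO cells. The 12 values in culture lay within 0.00505 FPKM of 0 to 5 whole steps, where a step is 0.0434 FPKM divided by the relative depth of the library, so that *Rgs1* was close to the lowest level that the table can show, and no ratio of the means is given.

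*Rgs2*, which acts mainly on the Gq class of alpha subunits, was at 124, 191 and 105 FPKM in the control libraries of D0 and at 118, 170 and 120 FPKM in the B-CKO libraries. On D1 the control libraries were at 2.09, 1.41 and 1.94 FPKM and the B-CKO libraries at 1.91, 1.43 and 1.51. The groups of both days were far apart, with a mean 77.0 times higher on D0 than on D1 in control and 84.2 times higher in B-CKO cells. On the log2 scale *Rgs2* changed by -5.61 (-6.17 to -5.05, limma adjusted p = 9.90e-06) in control and by -5.69 (-6.08 to -5.31, adjusted p = 2.68e-06) in B-CKO cells.

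The genes most like these 2 in pattern were found by the Pearson correlation of log2(FPKM + 1) over the 18 libraries among 8580 genes with a group mean of at least 5 FPKM. For *Rgs1* they were *Klf4* (r = 0.999), *Fosb* (0.998) and *Dnajb9* (0.997), and for *Rgs2* they were *Klf6* (0.997), *Tsc22d3* (0.997) and *Lmbrd1* (0.996). *Fosb*, a subunit of the AP-1 transcription factor, went from 466 FPKM in control cells on D0 to 0.397 FPKM on D1. These correlations rest on the step between D0 and culture that all of these genes share. A list of 22 genes was set beside them, mostly immediate early genes, which are induced within minutes by many stimuli. Its other genes include *Klf2*, *Hspa1a* and *Hspa1b*. The list had a summed level of 5830 to 7997 FPKM in control and 6007 to 7760 FPKM in B-CKO libraries of D0, and of 543 to 570 and 470 to 521 FPKM on D1. Of the 22 genes, 20 were called lower and 1 higher on D1 in each genotype. On D0, replicate 2 of each genotype had the highest sum of this list in its group and also the highest *Rgs1* and *Rgs2* levels. The part of the handling of the cells in these D0 levels was not tested.

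*Rgs14* and *Rgs3* fell by less. *Rgs14* couples RGS activity to Ras and Rap binding and also binds inactive alpha subunits of the Gi class. It was at 56.3, 48.0 and 36.9 FPKM in control libraries of D0 and at 13.9, 13.5 and 14.1 FPKM on D1 (log2 fold change -1.68, 95% confidence interval -2.04 to -1.32, limma adjusted p = 0.000159). In B-CKO cells it was at 50.5, 42.2 and 37.8 FPKM and then at 13.4, 10.5 and 11.6 (-1.79, interval -2.11 to -1.47, adjusted p = 5.25e-05). The ranges of the 2 days did not overlap in either genotype. *Rgs3*, which acts on Gi and Gq alpha subunits, was at 9.49, 7.97 and 7.07 FPKM in control libraries of D0 and at 2.40, 1.90 and 2.60 on D1 (-1.47, interval -1.82 to -1.13, limma adjusted p = 0.000225). In B-CKO cells it was at 7.08, 5.45 and 6.03 FPKM and then at 1.40, 1.58 and 1.54 (-1.51, interval -1.78 to -1.24, adjusted p = 5.46e-05). The mean of *Rgs3* was 3.56 times higher on D0 than on D1 in control and 4.11 times higher in B-CKO cells, and that of *Rgs14* was 3.41 and 3.68 times higher.

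*Rgs13*, known from germinal center B cells and mast cells, was at 1.78, 3.88 and 2.30 FPKM in control libraries of D0 and at 0.33, 0.51 and 0.29 on D1 (log2 fold change -1.37, interval -1.88 to -0.86, limma adjusted p = 0.00167). In B-CKO cells it was at 4.59, 3.93 and 3.57 FPKM and then at 0.91, 1.16 and 0.79 (-1.36, interval -1.65 to -1.08, adjusted p = 0.000106). All D1 libraries lay below all D0 libraries of the same genotype. *Rgs10*, a small RGS protein of immune cells and platelets that acts on the Gi class, was at 11.8, 9.95 and 13.1 FPKM in control libraries of D0 and at 6.33, 5.36 and 5.81 on D1 (-0.88, interval -1.17 to -0.59, adjusted p = 0.00106). In B-CKO cells it was at 10.3, 7.75 and 9.15 FPKM and then at 4.93, 5 and 3.70 (-0.86, interval -1.22 to -0.51, adjusted p = 0.00231). For this gene too, the ranges of the 2 days did not overlap.

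*Rgs19*, *Rgs18* and *Rgs16* were not called between D0 and D1. *Rgs19*, which acts on the Gi class, was at 93.6, 69.1 and 53.4 FPKM in control libraries of D0 and at 68.5, 69.7 and 70.1 on D1, with a log2 fold change of -0.02 (interval -0.48 to 0.45, limma adjusted p = 0.950). Its 3 D1 libraries were close together and lay inside the wide range of D0. In B-CKO cells the change was -0.10 (-0.46 to 0.25, adjusted p = 0.566). *Rgs18*, best known from platelets and their precursors, was at 5.23, 4.27 and 2.69 FPKM in control libraries of D0 and at 3.88, 3.73 and 3.14 on D1 (-0.11, interval -0.61 to 0.39, adjusted p = 0.657), with overlapping ranges. In B-CKO cells its change was -0.08 (-0.73 to 0.58, adjusted p = 0.821). *Rgs16*, which acts on Gi and Gq alpha subunits, was at 0.27, 0.40 and 0.33 FPKM in control libraries of D0 and at 0.37, 0.28 and 0.42 on D1 (0.02, interval -0.11 to 0.16, adjusted p = 0.720). In B-CKO cells it was at 0.42, 0.39 and 0.62 FPKM and then at 0.44, 0.46 and 0.36 (-0.05, interval -0.22 to 0.11, adjusted p = 0.526).

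**Figure D2:**
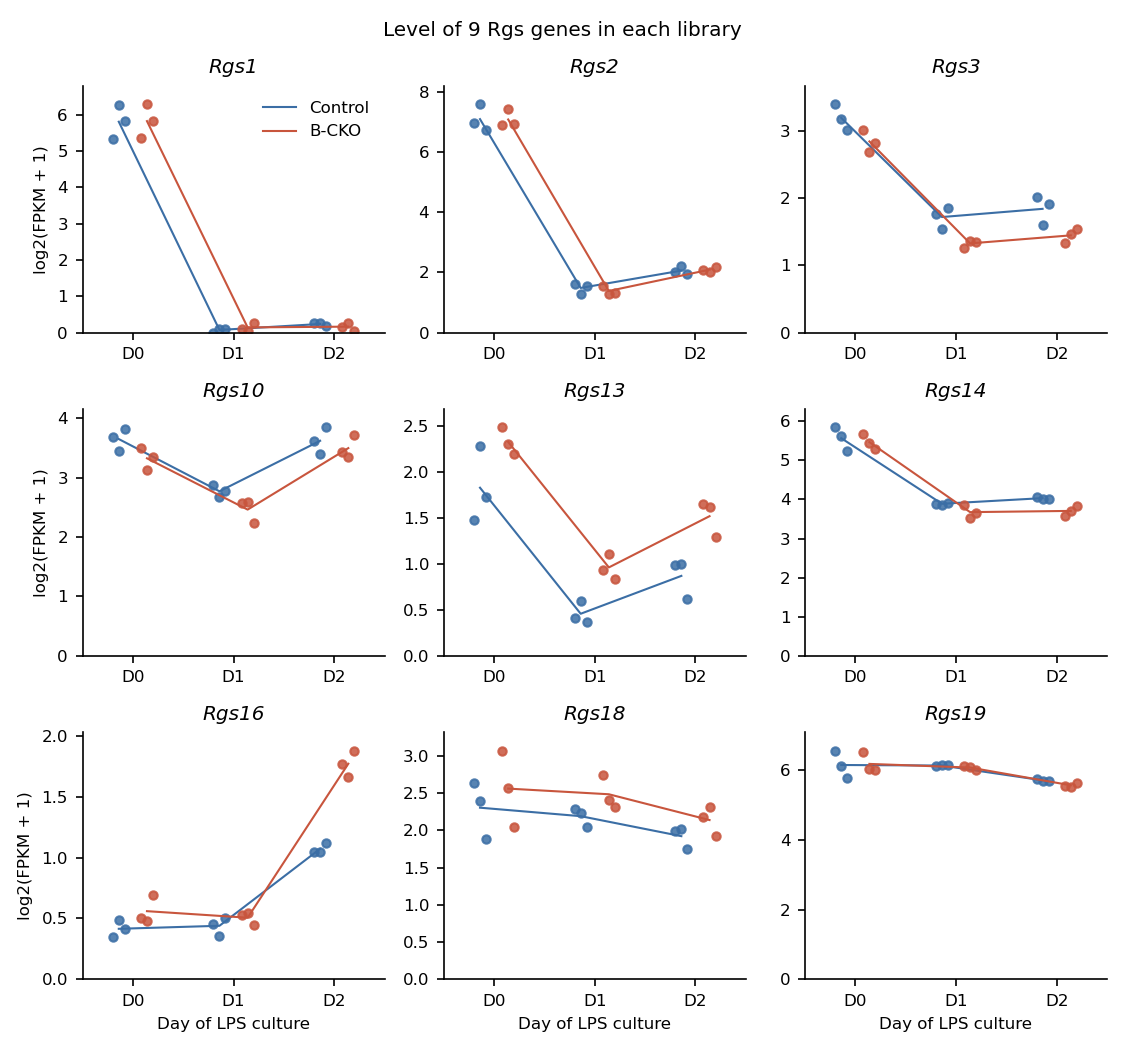
Level of each of the 9 *Rgs* genes in each library, as log2(FPKM + 1) against the day of LPS culture. Points are libraries (3 per group, control and B-CKO), lines join the group means, and each panel has its own scale starting at 0. *Rgs1* and *Rgs2* drop to control means of 0.0533 and 1.81 FPKM on D1, *Rgs10* returns to its D0 level on D2, and *Rgs16* is highest on D2.

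From D1 to D2 the genes parted. In control cells, 5 of the 8 tested genes were called higher (*Rgs1*, *Rgs2*, *Rgs10*, *Rgs13* and *Rgs14*) and 1 was called lower (*Rgs19*), beside 20.1% of all genes called higher and 24.8% called lower. In B-CKO cells 3 were called higher (*Rgs2*, *Rgs10* and *Rgs13*) and 1 lower (*Rgs19*), beside 21.7% and 24% of all genes. *Rgs16* was left out of these counts. The median change of the 8 genes was 0.15 in control and 0.08 in B-CKO cells, against -0.00474 and -0.00150 over all genes.

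*Rgs10* made the largest rise among the tested genes on the log2(FPKM + 1) scale, while the ratio of the control means was 1.95 for *Rgs10* and 2.23 for *Rgs13*, which is lower in level. It was at 11.3, 9.53 and 13.4 FPKM in control libraries of D2 and at 9.79, 9.14 and 12.2 in B-CKO libraries, all above those of D1 and within or near the range of D0. From D1 to D2 *Rgs10* changed by 0.85 (interval 0.57 to 1.13, limma adjusted p = 0.00133) in control and 1.04 (0.72 to 1.35, adjusted p = 0.000846) in B-CKO cells. The genes most like it were *Gsn* (r = 0.949), *Vsir* (0.947) and *Anxa5* (0.941), whose control means were also lowest on D1. *Gsn*, which codes for the actin-severing protein gelsolin, was at 34.3 FPKM in control cells on D0, 5.24 on D1 and 33.0 on D2.

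*Rgs2* rose from its low D1 level to 3.08, 3.63 and 2.84 FPKM in control libraries of D2 and to 3.26, 3.05 and 3.48 in B-CKO libraries, with no overlap with D1. This was a change of 0.58 (interval 0.29 to 0.86, limma adjusted p = 0.00706) in control and 0.71 (0.49 to 0.93, adjusted p = 0.000840) in B-CKO cells. Its D0 mean remained 43.9 times the D2 mean in control and 41.7 times in B-CKO cells. *Rgs13* rose to 0.98, 1.00 and 0.54 FPKM in control (0.41, interval 0.14 to 0.68, adjusted p = 0.0238) and to 2.14, 2.07 and 1.44 in B-CKO libraries (0.56, interval 0.27 to 0.84, adjusted p = 0.00797). Its D2 libraries lay above those of D1 in both genotypes, but the control call was lost in 4 fits that each left out 1 library (CON_D1 replicate 1 or 3, CON_D2 replicate 1 or 2), with adjusted p values from 0.0791 to 0.0863.

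*Rgs14* was at 15.9, 15.1 and 15.1 FPKM in control libraries of D2, a small change of 0.14 (interval 0.05 to 0.24, limma adjusted p = 0.0225), and at 11.0, 12.1 and 13.2 in B-CKO libraries (0.03, interval -0.21 to 0.27, adjusted p = 0.823). *Rgs1* was at 0.20, 0.21 and 0.13 FPKM in control libraries of D2 (0.16, interval 0.07 to 0.26, adjusted p = 0.0160) and at 0.12, 0.21 and 0.04 in B-CKO libraries (0.02, interval -0.14 to 0.19, adjusted p = 0.828). The control call of *Rgs14* was lost without CON_D1 replicate 1 (adjusted p = 0.0594), CON_D1 replicate 2 (0.0759) or CON_D2 replicate 1 (0.0545), and that of *Rgs1* without CON_D2 replicate 1 (0.0557) or CON_D2 replicate 2 (0.0571). The *Rgs14* call was also lost with the replicate block (adjusted p = 0.0519) and after rescaling to TPM (0.0900). *Rgs1* was close to the lowest level that can be shown on both days. When all 18 libraries were fitted together, the control calls of *Rgs1* (limma adjusted p = 0.690) and *Rgs14* (0.508) were lost. *Rgs3* was not called, with changes of 0.12 in both genotypes (limma adjusted p = 0.506 in control and 0.256 in B-CKO cells).

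*Rgs19* fell from D1 to D2 with little spread. It was at 52.8, 51.2 and 50.6 FPKM in control libraries of D2 and at 46.0, 44.9 and 48.7 in B-CKO libraries, all below those of D1. *Rgs19* changed by -0.42 (interval -0.49 to -0.36, limma adjusted p = 8.36e-05) in control and -0.51 (-0.62 to -0.40, adjusted p = 0.000166) in B-CKO cells. The control call was lost when all 18 libraries were fitted together, with the same fold change (limma adjusted p = 0.0587). The genes most like it were *Irf3* (r = 0.974), *Sphk2* (0.973) and *Gcnt1* (0.972). *Rgs18* was at 2.99, 3.05 and 2.38 FPKM in control libraries of D2 (-0.27, interval -0.51 to -0.03, adjusted p = 0.0724) and at 3.54, 3.97 and 2.80 in B-CKO libraries (-0.35, interval -0.70 to 0.00142, adjusted p = 0.0977). These did not pass the test, and with only genes of a mean of at least 1 FPKM they did, with adjusted p values of 0.0261 and 0.0298.

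**Figure D3:**
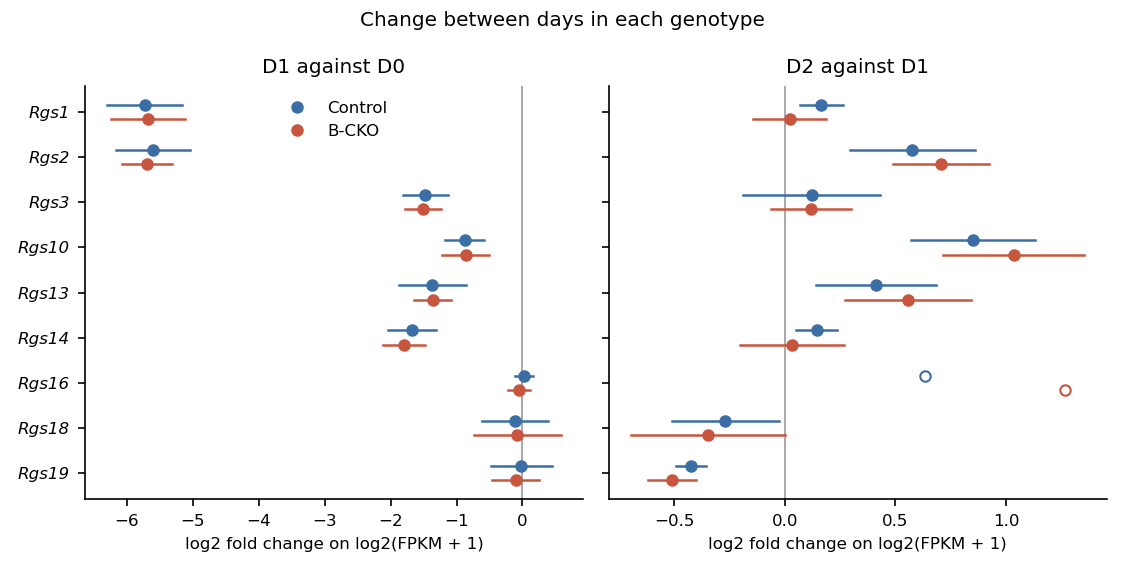
Log2 fold change on log2(FPKM + 1) of each *Rgs* gene from D0 to D1 (left) and from D1 to D2 (right) in control and B-CKO cells, with 95% confidence intervals of limma. Open circles, without an interval, are the *Rgs16* changes that end on D2, 0.63 in control and 1.27 in B-CKO cells, which were not tested.

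Whether the change between days differed by genotype was tested as an interaction. For D1 against D0, 0 of the 9 genes were called, nor was any of the 16182 genes tested (0%), and for D2 against D1, 0 of 8 genes and 0 of 15844 (0%). At an unadjusted p under 0.05 there were 467 (2.89%) and 1158 (7.31%) genes in all, and 0 of the tested *Rgs* genes were among them. The interaction estimates for D1 against D0 ranged from -0.11 (*Rgs14*, interval -0.59 to 0.36) to 0.05 (*Rgs1*, interval -0.74 to 0.85). For D2 against D1 they ranged from -0.14 (*Rgs1*, interval -0.34 to 0.05) to 0.18 (*Rgs10*, interval -0.24 to 0.61). The calls of *Rgs1* and *Rgs14* that were made only in control cells from D1 to D2 are thus not shown to differ from B-CKO cells.

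The genotypes were then compared on each day. In no case was one of the tested *Rgs* genes called, with 0 of 9 on D0, 0 of 9 on D1 and 0 of 8 on D2, beside 0%, 0.0993% and 0.046% of all genes tested by limma. On D0 the test called 0 of 15641 genes, and the deleted gene *Zbtb24* was among those not called. The count of 0 on D0 therefore does not show that the *Rgs* genes were equal between genotypes. In these fits, without a replicate block, 0 *Rgs* genes had an unadjusted p under 0.05 on D0, beside 2% of all genes. The libraries of 0 of the 9 genes were apart on that day, beside 3.87% of all genes. At the same unadjusted threshold, D1 had 1 higher (*Rgs13*) and 3 lower (*Rgs3*, *Rgs10* and *Rgs14*) beside 6.79% and 9.51% of all genes. D2 had 1 higher (*Rgs13*) and 3 lower (*Rgs3*, *Rgs14* and *Rgs19*) beside 3.57% and 4.14%. With the replicate number as a block, the D0 intervals of *Rgs3* (-0.58 to -0.12) and *Rgs10* (-0.54 to -0.10) lay below 0. Those of the other *Rgs* genes included 0, and 0 of the 9 were called. The unadjusted D0 count of 0 thus holds only without the block. The cutoff of the study's methods, a minimum fold change with an unadjusted p under 0.05, was stated there for DESeq2 and was applied here to the limma fit, with the fold change read as a log2 value. It took *Rgs13* as higher on D1 and on D2, beside 0.0993% and 0.27% of all genes.

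*Rgs13* had the largest tested difference on each day. The B-CKO mean was 1.52 times the control mean on D0, 2.53 times on D1 and 2.24 times on D2. The library values given above overlapped on D0, where control replicate 2 was at 3.88 FPKM and B-CKO replicate 3 at 3.57. On D1 and D2 all B-CKO libraries lay above all control libraries, beside 8.43% and 4.89% of all genes. On the log2 scale the difference was 0.50 on D0 (95% confidence interval -0.06 to 1.05, limma adjusted p = 1), 0.50 on D1 (0.30 to 0.71, adjusted p = 0.0841) and 0.65 on D2 (0.32 to 0.98, adjusted p = 0.284). The germinal center B cell markers, 9 genes, had 0 called on any day between genotypes, with summed levels of 82.7 to 87.0 FPKM in control and 69.1 to 72.2 in B-CKO libraries of D1, and of 123 to 139 and 143 to 159 on D2. The 5 mast cell and basophil markers in the table summed to at most 0.65 FPKM in any library, and *Cpa3* was at 0 in every library but control replicate 1 of D0 (0.04 FPKM).

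*Rgs3* was lower in B-CKO cells by a like amount on each day. The B-CKO mean was 0.757 times the control mean on D0, 0.655 times on D1 and 0.664 times on D2. The highest B-CKO library (7.08 FPKM) and the lowest control library (7.07) touched on D0, and on D1 and D2 the B-CKO libraries lay below the control libraries, beside 11.7% and 6.24% of all genes. Differences were -0.35 on D0 (interval -0.72 to 0.02, limma adjusted p = 1), -0.39 on D1 (-0.61 to -0.18, adjusted p = 0.126) and -0.39 on D2 (-0.68 to -0.11, adjusted p = 0.466). With only genes of a mean of at least 1 FPKM, *Rgs3* was called on D1 (adjusted p = 0.0444), beside 388 of 9711 genes.

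*Rgs14*, *Rgs10* and *Rgs19* were lower in B-CKO cells in part of the comparisons. *Rgs14* had a log2 fold change of -0.10 on D0 (interval -0.53 to 0.33), -0.21 on D1 (-0.41 to -0.02, limma adjusted p = 0.265) and -0.33 on D2 (-0.49 to -0.16, adjusted p = 0.274), and its B-CKO libraries lay below the control libraries on D1 and D2. *Rgs10* had -0.32 on D0 (interval -0.68 to 0.04), -0.31 on D1 (-0.57 to -0.05, adjusted p = 0.235), where the libraries did not overlap, and -0.12 on D2 (-0.45 to 0.21). *Rgs19* had 0.03 on D0 (interval -0.54 to 0.60), -0.06 on D1 (-0.14 to 0.02) and -0.14 on D2 (-0.24 to -0.04, adjusted p = 0.450), where its B-CKO libraries lay below the control libraries. None of these passed the test after adjustment. Leaving out 1 library gave -0.37 to -0.19 for *Rgs10*, -0.30 to -0.14 for *Rgs14* and -0.086 to -0.027 for *Rgs19* on D1. On D2 it gave -0.24 to -0.012 for *Rgs10*.

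*Rgs18* was at 7.42, 4.93 and 3.14 FPKM in B-CKO libraries of D0 and at 5.70, 4.31 and 3.96 on D1. The B-CKO mean was 1.27, 1.3 and 1.22 times the control mean on D0, D1 and D2. In the fit without a block, the D0 log2 value of 0.26 went from 0.0019 without BCKO_D0 replicate 1 to 0.51 without BCKO_D0 replicate 3. D0 libraries of the same number deviated together between genotypes, and the B-CKO library was the higher one in each such pair. With the replicate number as a block, the D0 interval was -0.0027 to 0.52 (limma adjusted p = 0.867). The libraries of the 2 genotypes did not overlap on D1 (log2 fold change 0.30, interval -0.00474 to 0.59, limma adjusted p = 0.312) and overlapped on D0 and D2. Leaving out 1 library gave log2 values of 0.17 to 0.38 on D1 and of 0.13 to 0.32 on D2. Of 12 platelet and megakaryocyte markers, 10 had a mean under 1 FPKM in each genotype on D0, and *Pf4* was at 0 in every library but B-CKO replicate 1 of D0 (0.21 FPKM). Their sum went from 7.55 to 12.1 FPKM in control libraries of D0 to 1.29 to 1.48 FPKM on D1, most of it *Itgb3*. *Rgs18* was at 2.69 to 5.23 FPKM in the same libraries of D0 and at 3.14 to 3.88 FPKM on D1.

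*Rgs1* and *Rgs2*, the genes with the strongest fall in culture, showed the smallest differences between genotypes on D0, with log2 fold changes of 0.02 (interval -0.73 to 0.77) and -0.01 (-0.62 to 0.60). In culture *Rgs2* had -0.10 on D1 (interval -0.37 to 0.17) and 0.03 on D2 (-0.20 to 0.26), and *Rgs1* had 0.07 on D1 (-0.07 to 0.21) and -0.07 on D2 (-0.21 to 0.06). On D0, libraries of the same number deviated together between genotypes, and with the replicate number as a block the intervals were narrower, at -0.083 to 0.12 for *Rgs1* and -0.23 to 0.21 for *Rgs2*. In this fit the D0 differences of *Rgs3* (interval -0.58 to -0.12) and *Rgs10* (-0.54 to -0.10) kept to 1 side of 0, with a limma adjusted p of 0.812 for both.

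**Figure D4:**
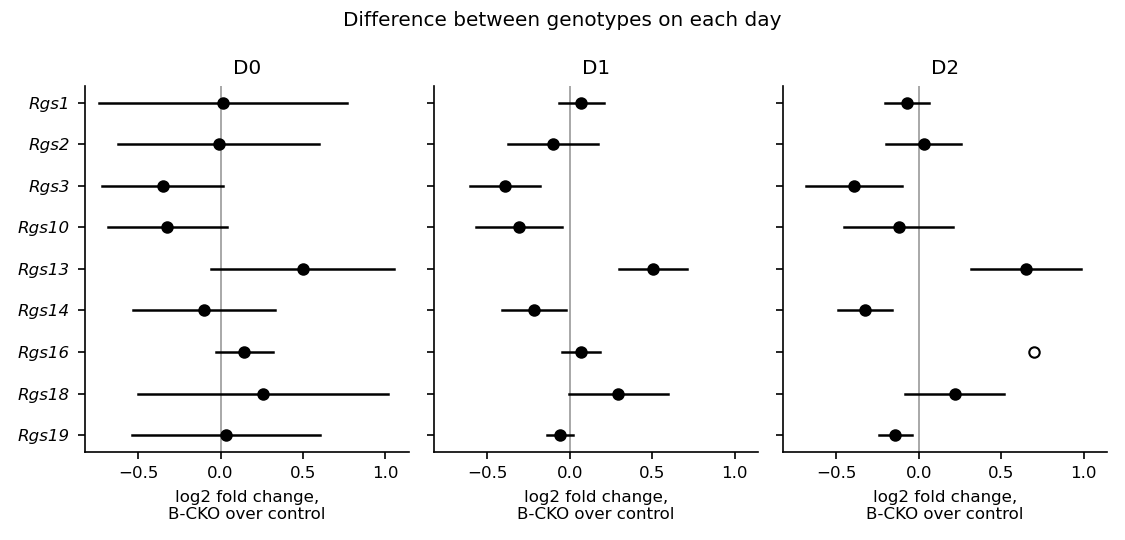
Log2 fold change of B-CKO over control cells for each *Rgs* gene on D0, D1 and D2, with 95% confidence intervals of limma. The open circle is *Rgs16* on D2 (0.70), the value for which this gene was picked, shown without an interval. The intervals of *Rgs13* and *Rgs3* lie on opposite sides of 0 on D1 and D2, but 0 of the tested genes passed the test after adjustment over all genes.

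*Rgs16* was low throughout, and its D2 values chose it. On D2 it was at 1.07, 1.07 and 1.17 FPKM in control and at 2.42, 2.17 and 2.68 FPKM in B-CKO libraries. The B-CKO mean was 2.20 times the control mean, a log2 fold change of 0.70 on log2(FPKM + 1), and the libraries of both genotypes did not overlap. The D2 mean was 3.09 times the D1 mean in control and 5.77 times in B-CKO cells, and the D2 libraries of both genotypes lay above all libraries of D0 and D1. Before D2 the libraries of the genotypes overlapped. The difference was 0.15 on D0 (interval -0.03 to 0.32, limma adjusted p = 1) and 0.07 on D1 (-0.05 to 0.18, adjusted p = 0.558). In the order of levels, *Rgs16* was the lowest but *Rgs1* on D1 in both genotypes, and on D2 it lay above *Rgs13*, without overlap, in both genotypes.

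Among the other genes named *Rgs* and their binding proteins, 10 of 14 listed were in the table, and all but 1 had means under 1 FPKM in control cells of D0. *Rgs11*, which forms a complex with the G beta subunit Gnb5, rose from 0.147 FPKM in control cells on D1 to 4.61 on D2 (2.27 on the log2 scale with a standard error of 0.17, adjusted p = 0.000125 by limma) and from 0.0733 to 4.29 FPKM in B-CKO cells (2.30, standard error 0.09, adjusted p = 9.92e-06). *Gnb5* rose in control cells as well, from 0.193 to 0.660 FPKM (0.48, adjusted p = 0.000401). On D2, the mean of *Rgs11* in control cells was thus above those of *Rgs2*, *Rgs3*, *Rgs13* and *Rgs16*.

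The partners of RGS proteins were described by lists of genes (the plot of called genes per list). Their counts on D1 stand beside the shares of all genes, 30.7% called lower and 26.7% higher in control and 32.3% and 27.5% in B-CKO cells. Of 9 other proteins with an RGS domain, 8 were called lower on D1 in control cells and 7 in B-CKO cells, with medians of -0.57 and -0.65. *Arhgef1*, an exchange factor that acts downstream of G alpha 13, went from 410 to 126 FPKM in control (log2 fold change -1.70, limma adjusted p = 5.88e-06) and from 400 to 111 FPKM in B-CKO cells (-1.83, adjusted p = 6.60e-06). Of 13 G alpha subunits, the substrates of RGS proteins, 2 were called higher and 5 lower in control cells, and 2 and 6 in B-CKO cells, with shares of lower calls not far from those of all genes. *Gnai3* was among those that rose, from 43.2 to 55.0 FPKM in control cells (0.34, adjusted p = 0.000938), and *Gnal*, of the Gs class, was among those that fell, from 4.58 to 1.28 FPKM (-1.27, adjusted p = 0.00115). Of 15 G beta and gamma subunits, 5 rose and 1 fell in control cells, among them *Gnb1*, which rose from 76.4 to 111 FPKM, and *Gng2*, which fell from 34.6 to 17.3 FPKM.

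Of 28 receptors of B cells, 16 were called lower and 0 higher on D1 in control cells, and 18 lower and 1 higher in B-CKO cells, with medians of -0.60 and -0.75. The other receptors were not called lower, and *Cxcr5*, named after its values were seen, was at 109 to 175 FPKM in control libraries of D0 and at 133 to 145 FPKM on D1. *Cxcr4*, the receptor for CXCL12, went from 350 to 8.05 FPKM in control cells (-5.16 on the log2 scale with a standard error of 0.36, adjusted p = 5.92e-05 by limma) and from 330 to 7.29 FPKM in B-CKO cells (-5.28, standard error 0.20, adjusted p = 4.78e-06). *S1pr1*, the receptor for exit from lymphoid tissue, went from 179 to 8.92 FPKM in control (-4.16, standard error 0.14, adjusted p = 6.51e-06) and from 164 to 6.66 FPKM in B-CKO cells (-4.42, standard error 0.10, adjusted p = 2.24e-06). *Cnr2*, a cannabinoid receptor, went from 64.5 to 9.70 FPKM in control cells (-2.61, adjusted p = 6.17e-06).

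Of 13 receptor kinases, arrestins and G protein chaperones, which desensitize receptors or handle G proteins outside the RGS cycle, 11 were called lower and 1 higher in control and 12 lower and 1 higher in B-CKO cells. *Grk6* went from 248 to 105 FPKM (-1.24, limma adjusted p = 1.99e-05) and *Arrb1*, coding for beta-arrestin 1, from 11.3 to 2.35 FPKM (-1.88, adjusted p = 2.85e-05) in control cells. Of 28 effectors, 15 were called lower and 3 higher in control cells and 16 lower and 4 higher in B-CKO cells. *Plcb2*, a phospholipase C activated by G proteins, went from 31.3 to 7.29 FPKM in control cells (-1.96, adjusted p = 9.01e-06).

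From D1 to D2, 20.1% of all genes were called higher and 24.8% lower in control cells, and 21.7% and 24% in B-CKO cells. In control cells, 10 of 27 receptors were called higher and 1 lower, and in B-CKO cells 14 were called higher and 2 lower. *Cxcr4* rose to 20.1 FPKM in control (1.21, limma adjusted p = 0.000168) and 18.1 FPKM in B-CKO cells (1.2, adjusted p = 1.44e-05), and *S1pr4* rose from 14.2 to 37.2 FPKM in control cells (1.32, adjusted p = 3.94e-05). Of the G alpha subunits, 5 of 13 were called higher and 1 lower in control cells, among them *Gna15*, of the Gq class, which rose from 2.09 to 5.31 FPKM (1.03, adjusted p = 5.42e-05). Of the 13 receptor kinases, arrestins and chaperones, 4 were called higher and 4 lower in control and 5 and 2 in B-CKO cells, and of the effectors 10 of 27 were called higher and 7 lower in control and 11 of 28 and 6 in B-CKO cells. In the comparisons of genotypes, 0 genes of these lists were called by limma on any day. *Gpr34* had the smallest unadjusted p of the receptors on D0 and D2, with means of 0.633 FPKM in control and 1.46 in B-CKO cells on D0 (0.62, adjusted p = 1) and of 1.38 and 2.82 on D2 (0.68, adjusted p = 0.205).

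**Figure D5:**
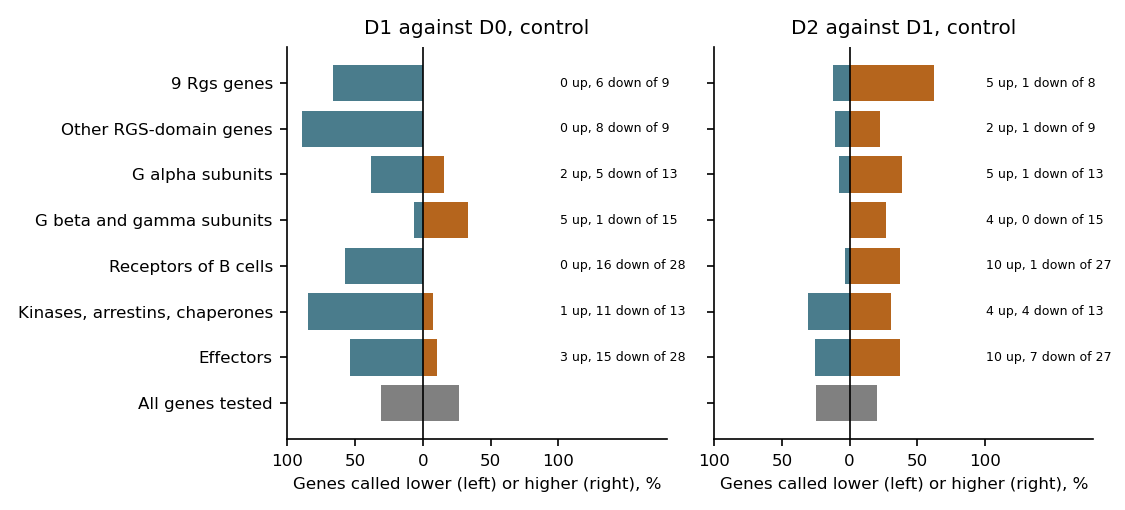
Share of genes called lower (bars to the left) or higher (to the right) by limma in control cells, in percent of the genes tested of each list, for D1 against D0 and D2 against D1. Counts are given beside the bars, the grey bar is all genes tested, and *Rgs16* is left out of the comparison with D2. On D1 the bars of the *Rgs* genes, other RGS-domain genes, receptors, receptor kinases and effectors reach far to the left, while G beta and gamma subunits lean to the right.

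Markers of other cells were measured as well, and those of plasma cells were the highest. The 10 T cell markers in the table summed to 28.1 to 37.4 FPKM in control libraries of D0 and 13.6 to 16.3 on D1, and in B-CKO libraries to 27.1 to 34.3 and 11.1 to 12.7. The 8 NK cell markers summed to 9.11 to 15.5 FPKM in control libraries of D0 and 0.67 to 0.76 on D1. The 14 myeloid markers summed to 17.2 to 24.3 FPKM in control and 19.5 to 27.2 in B-CKO libraries of D0, and to 17.7 to 19.4 and 12.3 to 13.5 on D1. The 7 erythroid markers summed to 15.1 to 37.7 FPKM in control and 11.9 to 71.3 in B-CKO libraries of D0. The plasma cell markers, 7 genes, summed to 442 to 566 FPKM in control and 453 to 613 in B-CKO libraries of D0. They summed to 404 to 450 FPKM in control and 430 to 450 in B-CKO libraries of D1 and to 636 to 944 and 779 to 906 on D2. From D1 to D2, 6 of them were called higher and 0 lower in control and 4 higher and 1 lower in B-CKO cells, beside 20.1% and 24.8% of all genes in control and 21.7% and 24% in B-CKO cells. In bulk samples, these sums do not tell other cells from B cells that express the same genes. The part of other cells in the changes of the *Rgs* genes was not tested.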

How the data were processed

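Total RNA of purified splenic B cells was sequenced in 18 libraries, 3 for each of 6 groups set by genotype and day. The table holds FPKM that the authors made before deposit by mapping to mm10 with Bowtie2 and estimating abundance with Cufflinks and RSEM. The submitters' processing notes also name BWA and DESeq2, and versions and gene annotation are not given in the sources used here. The methods state that absent features were removed before the differential test, and whether this applied to the FPKM table is not stated. No pooling of replicates is stated. Libraries map to groups by their column names. Gene IDs were matched to symbols for 16512 of 16545 rows.

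Values were analysed as log2(FPKM + 1) with limma 3.58.1 in R 4.3.3 (lmFit, then eBayes with a mean trend), on genes above 0 in any library of the groups compared, with Benjamini-Hochberg adjustment over all of them and a threshold of 0.05, two-sided. Only the compared groups entered a fit, without a replicate block. The adjusted p-values measure the spread between these libraries. The fit was tested on simulated data. Alternatives were TPM or median-ratio scaling, a pseudocount of 0.1, dropping genes whose mean was under 1 FPKM, 1 fit over the 18 libraries (the single fit), a replicate block, the cutoff of the study's methods and leaving out each library. The block was checked by correlating deviations from the group means between libraries of the same number. These were 0.468 to 0.854 between genotypes on D0 and 0.117 to 0.183 between D1 and D2 in B-CKO cells, above 0.1 for every pair, and not above it for every pair elsewhere.

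The members and gene lists were chosen with earlier results of these data known. The genes named were all 9 *Rgs* genes and, from each other list and comparison, up to 3 called genes of smallest adjusted p without overlap between groups, or the gene of smallest unadjusted p where none was called. A withheld item is not reported here.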

Additional observations from a re-analysis of the deposited data

How the results depend on the processing

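Of 1144 values of single genes under alternatives, 1049 kept their direction and their side of the threshold, 18 lost and 6 gained a call, 63 changed sign and 8 untested *Rgs16* values moved by more than the spread between replicates. The 6 genes called lower from D0 to D1 stayed 6 in number under every alternative in both genotypes. Between genotypes, 1 gene was called on D1 with a mean of at least 1 FPKM (*Rgs3*, with 388 calls over all genes against 15) and 1 under the study's cutoff (*Rgs13*, 67 genes), and 1 on D2 under that cutoff (*Rgs13*, 89 genes). The calls over all genes on D1 were 46 with a pseudocount of 0.1, 5 with the block and 8 in the single fit. On D2 they were 29 with a mean of at least 1 FPKM, 3 with the block and 11 in the single fit, against 7, and on D0 25 in the single fit and 2 with a mean of at least 1 FPKM, against 0. Leaving out a library gave 5 to 8 calls over all genes on D1, 0 to 6 on D2 and 0 or 1 on D0. From D1 to D2 in control cells, 2 genes were called in the single fit of 18 libraries (4650 genes in all), 3 under the study's cutoff (2643) and 3 to 6 when a library was left out, with 3 without CON_D2 replicate 1. In the single fit, *Rgs1* (adjusted p = 0.690), *Rgs13* (0.104), *Rgs14* (0.508) and *Rgs19* (0.0587) lost the limma call. The cause was not tested.

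With the replicate block, the number of *Rgs* genes called stayed at 0 for each comparison of genotypes and for both interactions, at 6 and 6 for D1 against D0, and at 6 (control) and 4 (B-CKO) for D2 against D1, where in control cells *Rgs14* was lost (limma adjusted p = 0.0519) and *Rgs18* was gained (0.0303).

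Signs changed only for estimates that were not called. Rescaling to TPM gave -0.028 for *Rgs16* from D0 to D1 in control and -0.019 for *Rgs14* from D1 to D2 in B-CKO cells, and median-ratio scaling gave 0.054 for *Rgs19* from D0 to D1 in control cells. A pseudocount of 0.1 gave interaction values of -0.011 (*Rgs10*, D1 against D0), 0.017 (*Rgs3*, D2 against D1) and -0.056 (*Rgs13*, D2 against D1). Leaving out a library gave these log2 ranges. Between genotypes on D0 they were -0.22 to 0.25 for *Rgs1*, -0.19 to 0.24 for *Rgs2*, -0.26 to 0.036 for *Rgs14* and -0.16 to 0.24 for *Rgs19*, and on D2 -0.029 to 0.11 for *Rgs2*. From D0 to D1 in control cells they were -0.0097 to 0.066 for *Rgs16*, -0.33 to 0.052 for *Rgs18* and -0.21 to 0.19 for *Rgs19*, and in B-CKO cells -0.096 to 0.015, -0.33 to 0.18 and -0.20 to 0.066. From D1 to D2 in B-CKO cells they were -0.034 to 0.081 for *Rgs1* and -0.047 to 0.12 for *Rgs14*. For the interaction of D1 against D0 they were -0.19 to 0.29 for *Rgs1*, -0.34 to 0.094 for *Rgs2*, -0.14 to 0.048 for *Rgs3*, -0.082 to 0.13 for *Rgs10*, -0.22 to 0.18 for *Rgs13*, -0.25 to 0.048 for *Rgs14*, -0.22 to 0.29 for *Rgs18* and -0.29 to 0.10 for *Rgs19*, and for D2 against D1 -0.12 to 0.088 for *Rgs3* and -0.17 to 0.050 for *Rgs18*. The number of fragments is unknown, which limits values near 0 such as those of *Rgs1* in culture.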
